A study of Mus musculus with 8 samples.

Results

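The miR-10, miR-99 and miR-100 superfamily was followed among the RISC-bound small RNAs of mouse brain. Its members were taken by name from a table of distinct reads, as mmu-miR-10a-5p, mmu-miR-10b-5p, mmu-miR-99a-5p, mmu-miR-99b-5p, mmu-miR-100-5p and mmu-miR-99b-3p, written without the mouse prefix from here on, and are 6 of the 895 miRNA names in the table. They covered 283 of 47204 distinct sequences and 359802 reads over 8 libraries. All values are CPM, the reads of a miRNA per 1000000 reads of its library, summed over the sequences that carry its name. The libraries came from 4 5XFADtg Rubicon+/- mice (het) and 4 5XFADtg Rubicon-/- mice (ko). All 8 mice were females that carried the 5XFAD transgenes, a model of amyloid deposition driven in neurons from the Thy1 promoter, and all had lost at least 1 copy of Rubicon, a gene that restrains autophagy. The 5XFAD line was kept by crosses to C57BL/6J/SJL hybrid females. Their age was 6 months in the account of this comparison and 6 or 8 months in the methods, and the labels give neither an age per mouse nor any treatment. Cortex and hippocampus were combined, Argonaute (Ago) proteins were pulled down with a GW182 peptide, and the RNA they held was sequenced. The labels set each library to a different mouse, 4 per genotype. The methods of the study also give 4 mice per genotype, while its results name 3 het mice and its figure legend triplicates. All 8 libraries were used here.

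miRNAs guide Argonaute to mRNAs that pair with their seed, the bases just behind the 5′ end, and miRNAs with the same seed share most of their targets. miR-10a and miR-10b are encoded within the Hox gene clusters, which pattern the body along the head-to-tail axis, and are typical of hindbrain, spinal cord and trunk rather than forebrain. miR-99a, miR-99b and miR-100 are encoded beside let-7 and miR-125 genes, are abundant in brain, and are known for targeting components of the mTOR pathway. All belong to a very old miRNA family, and the seed of the miR-10 pair differs from that of the miR-99/100 trio.

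The mature sequences below, from RefSeq (GRCm38.p6), are shown because the seeds divide the family. All 6 members matched an entry, and capitals mark the seed at bases 2 to 8.
miR-10a-5p: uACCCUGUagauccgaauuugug
miR-10b-5p: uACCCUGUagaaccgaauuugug
miR-99a-5p: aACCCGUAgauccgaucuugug
miR-100-5p: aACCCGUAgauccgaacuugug
miR-99b-5p: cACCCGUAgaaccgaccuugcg
miR-99b-3p: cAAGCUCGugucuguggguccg
The 6 members thus held 3 seeds. With positions counted from 1 at the 5′ end, miR-10b-5p differed from miR-10a-5p by U12A alone, and miR-100-5p differed from miR-99a-5p by U16A alone. miR-99b-5p differed from miR-99a-5p by A1C, U11A, U16C and U21C. A read with an error at one of the single differing bases would be counted under the name of the sister miRNA.

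The genes lie at 5 places of GRCm38, all on the plus strand. miR-10a-5p is at chr11:96317186-96317208 in the Hoxb cluster, outside annotated genes and 1059 bp from Hoxb4. miR-10b-5p is at chr2:74726074-74726096, within introns of Hoxd3 and Hoxd4. miR-99a-5p is at chr16:77598940-77598961, in an intron of its host transcript Mir99ahg, opposite an intron of Gm11146, and 710 bp from let-7c-5p. miR-99b-5p is at chr17:17830194-17830215, in an intron of Spaca6, with miR-99b-3p on the other arm of the same hairpin (chr17:17830232-17830253) and let-7e-5p 150 bp away. miR-100-5p is at chr9:41531437-41531458, in introns of 3110039I08Rik and Gm49317 and opposite an exon of Gm48742.

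Library depth ran from 517980 to 19915863 reads, so that 3 reads, the smallest level taken as seen, were worth from 0.151 CPM in ko replicate 2 to 5.79 CPM in het replicate 1. The deepest libraries, replicates 1 and 2, were both ko, and in these depth and genotype cannot be told apart. The 5 neuronal miRNAs listed as markers, among them miR-124-3p and miR-9-5p, summed to between 178727 and 279811 CPM in these libraries of forebrain tissue. Het replicate 1 and ko replicate 3 held more miR-10a-5p, miR-196a-5p and miR-196b-5p, miRNAs of the Hox clusters, than the other 6 libraries. The fold changes of the miR-10 pair, its ratio to the trio and the correlations with miR-10a-5p among Hox miRNAs are given with and without them, and its read forms, seed sums and most similar miRNAs over all 8 libraries.

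The family was led by miR-99a-5p, and its members ranged from abundant guides to miRNAs seen with a few reads. miR-99a-5p averaged 8631 ± 3968 CPM (SD, n = 8 libraries) and was the miRNA of rank 29 in the table. It was followed by miR-100-5p with 1708 ± 583 CPM and miR-99b-5p with 1356 ± 368 CPM. The 5 members from 5p arms made up between 0.466% and 1.62% of a library, nearly all of it from this trio, and the remaining members were scarce. miR-99b-3p had 60.0 ± 21.0 CPM, miR-10a-5p 27.5 ± 31.8 CPM and miR-10b-5p 11.97 ± 6.72 CPM. The step from miR-99b-5p to miR-99b-3p was found in 8 of 8 libraries, and that from miR-99a-5p to miR-100-5p in 7 of 8. The neighbours miR-100-5p and miR-99b-5p kept their order in 7 of 8 libraries, but their mean log2 difference of 0.30 was below its SD of 0.73, and likewise that between miR-10a-5p and miR-10b-5p was 0.66 with an SD of 0.87. miR-99b-3p was above miR-10a-5p in 6 of 8 libraries.

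**Figure D1:**
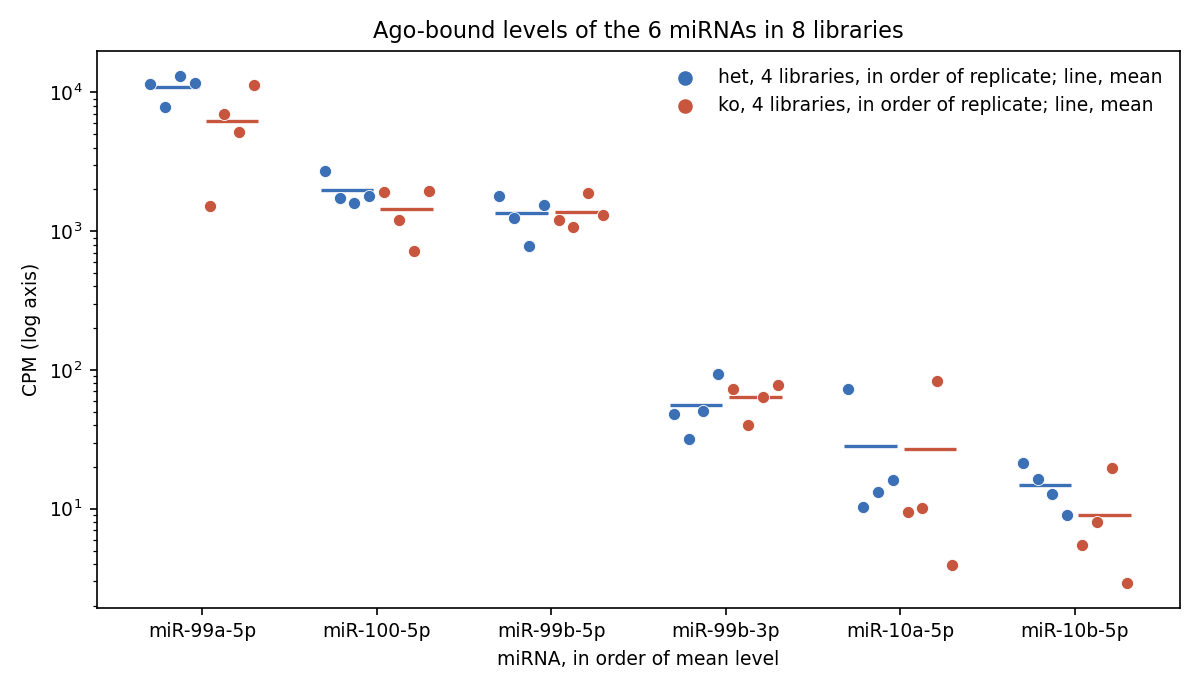
Level of each member in CPM on a log axis, with a point for each of the 4 het (blue) and 4 ko (red) libraries and a line at the mean of each genotype. miR-99a-5p lies near 8631 CPM on average and the miR-10 pair near 27.5 and 11.97 CPM, with 1 het and 1 ko library of miR-10a-5p far above the rest.

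miR-10a-5p set het replicate 1 and ko replicate 3 apart. The het libraries held 73.4, 10.3, 13.2 and 16.1 CPM in replicates 1 to 4, and the ko libraries 9.54, 10.04, 83.8 and 3.92 CPM. Het replicate 1 was 4.54 times the next het library, and ko replicate 3 was 8.34 times the next ko library, while the other 3 het libraries, from 10.3 to 16.1 CPM, and the other 3 ko libraries, from 3.92 to 10.04 CPM, lay next to each other. The counts behind these values were 38, 15, 34 and 43 reads in het and 75, 200, 195 and 4 reads in ko. The 95% Wilson interval, which covers counting error only, ran from 53.5 to 101 CPM for the former library and from 72.8 to 96.4 CPM for the latter, clear of that of het replicate 4, whose upper end was 21.7 CPM. In tissue of many cell types, more cells of a type and more RNA per cell cannot be told apart. In ko replicate 3, miR-10a-5p lay 2.91 log2 units above the median of the other 7 libraries, the highest such value among the 463 tested miRNAs, all averaging 10 CPM or more, and in het replicate 1 it lay 2.72 above, a value reached by 4 of 463.

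miR-10b-5p followed the same libraries less steeply. It held 21.2, 16.5, 12.8 and 9.01 CPM in het replicates 1 to 4 and 5.47, 7.99, 19.8 and 2.94 CPM in ko. The highest library of each genotype was again het replicate 1 or ko replicate 3, but the 4 het libraries formed a range with no gap, and the genotypes overlapped. The ratio of miR-10a-5p to miR-10b-5p was 3.45, 0.625, 1.03 and 1.79 in het and 1.74, 1.26, 4.24 and 1.33 in ko. miR-10a-5p was thus the more abundant of the pair in 7 of 8 libraries, and by most in het replicate 1 and ko replicate 3.

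The other miRNAs of the Hox clusters were high in the same libraries. Of 7 names listed, 3 were in the table, and all were too scarce for the test between genotypes, which required a mean of 10 CPM. miR-196a-5p, encoded in the Hoxb and Hoxc clusters, held 15.4, 1.38, 0.388 and 2.25 CPM in het and 0.636, 0.050, 6.87 and 0 CPM in ko. miR-196b-5p, from an exon of Hoxa9, held 15.4, 0, 0.388 and 0.750 CPM in het and 0, 0.1, 14.6 and 0 CPM in ko. Both had their highest value of each genotype in the libraries that were highest in miR-10a-5p. miR-615-3p, from an intron of Hoxc5, held 1.93, 0.688, 0.388 and 1.13 CPM in het and 0.127, 0.602, 14.6 and 0 CPM in ko, so that it stood out in ko replicate 3 alone. In het replicate 1 these values were 8, 8 and 1 reads, and in ko replicate 3 they were 16, 34 and 34 reads. In ko replicate 4, 3 reads were worth 2.94 CPM, and the Wilson interval of a count of 0 ended at 3.76 CPM.

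Across the 8 libraries, after removal of the genotype means, the log2 levels of miR-10a-5p had a Pearson r of 0.86 with miR-10b-5p, 0.93 with miR-196a-5p, 0.96 with miR-196b-5p and 0.90 with miR-615-3p. Over the 6 libraries left without het replicate 1 and ko replicate 3, an alternative chosen after seeing the data, r was 0.48, 0.37, 0.50 and 0.64 in the same order. These are descriptions over points that share library and depth. miR-99b-5p, which is not encoded in a Hox cluster, also had its highest value of each genotype in het replicate 1, with 1797 CPM, and ko replicate 3, with 1871 CPM. Its r over the 8 libraries was 0.67 with miR-10a-5p, 0.86 with miR-196a-5p and 0.73 with miR-196b-5p, and over the same 6 libraries it was -0.11, 0.81 and 0.16. None of the 10 other marker lists, each taken as a sum, was highest in both het replicate 1 and ko replicate 3 within their genotypes. Single markers were, so the sums do not set the Hox miRNAs apart from every other marker. For miR-132-3p, a neuronal marker, the het peak was replicate 1, at 28941 CPM, and the ko peak was replicate 3, at 31573 CPM. The oligodendrocyte marker miR-219a-2-3p peaked in the same libraries. The remaining markers of these 2 lists did not peak in both. The mesenchymal and meningeal miRNAs, miR-199 and miR-214 forms, summed to 407 CPM in het replicate 1, where they were highest, but to 21.1 CPM in ko replicate 3, where they were lowest. Those of epithelium summed to 4500 CPM in het replicate 1, below the 8424 CPM of het replicate 4, and to 1718 CPM in ko replicate 3, the highest of the ko libraries. The part of any of these in the miR-10 values was not tested.

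**Figure D2:**
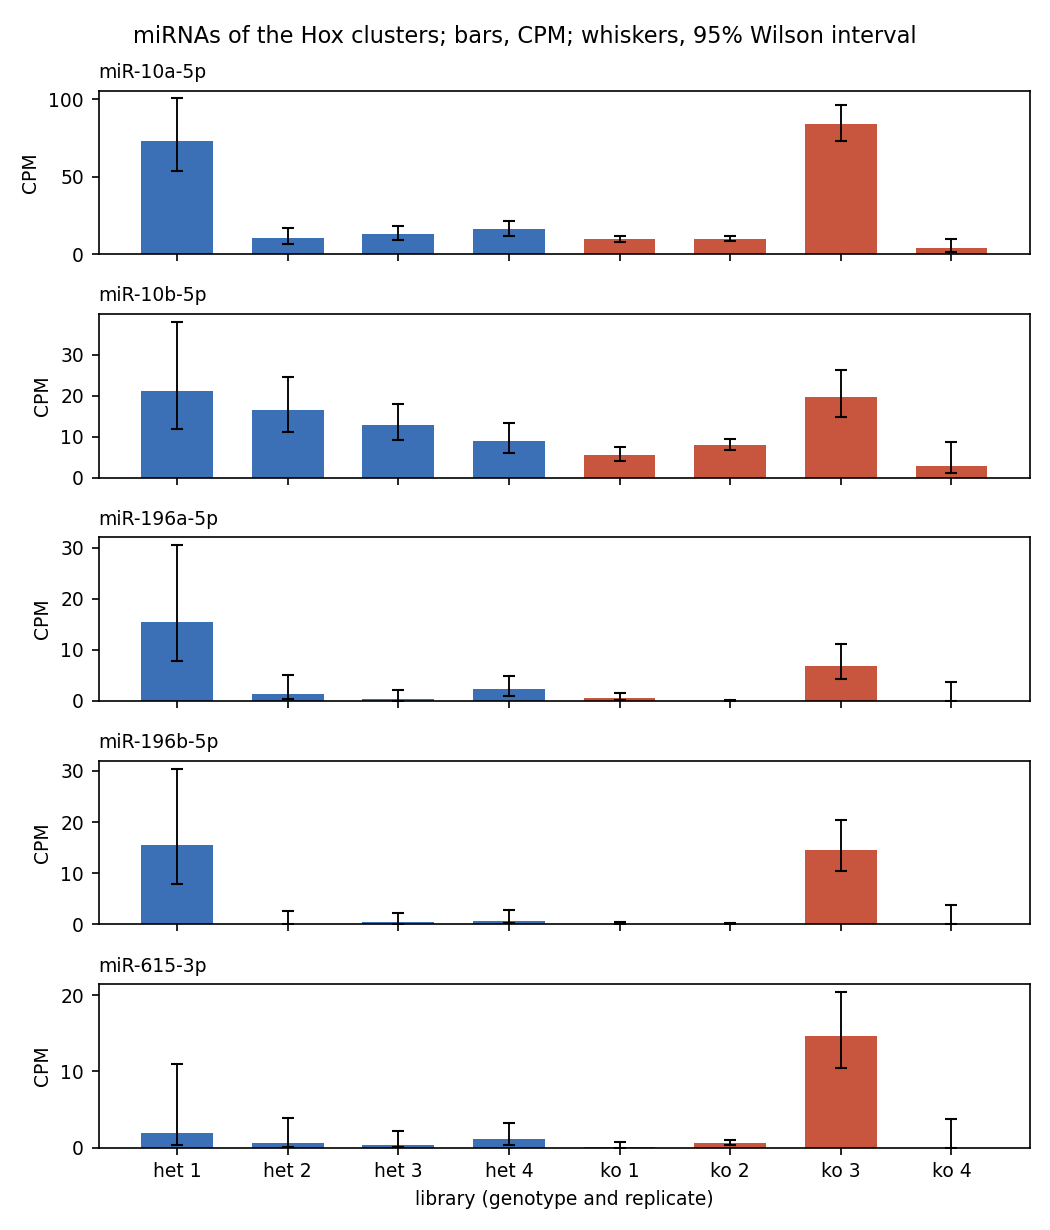
CPM of the miR-10 pair and of miR-196a-5p, miR-196b-5p and miR-615-3p in each library, with bars from 0, het in blue, ko in red, and whiskers for the 95% Wilson interval. The tallest miR-10a-5p bars are het replicate 1 (73.4 CPM) and ko replicate 3 (83.8 CPM), and miR-196a-5p and miR-196b-5p peak in the same libraries.

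The members of the trio departed most from their usual level in different libraries. miR-99a-5p held 11543, 7824, 13115 and 11608 CPM in het replicates 1 to 4 and 1524, 6933, 5214 and 11283 CPM in ko. Its lowest values were those of ko replicates 1, 3 and 2, while ko replicate 4 lay within the het range. In ko replicate 1, the level was 2.89 log2 units below the median of the other 7 libraries, and 8 of 278 miRNAs averaging 100 CPM or more were as low there. miR-100-5p held 2732, 1737, 1607 and 1794 CPM in het and 1904, 1211, 724 and 1958 CPM in ko. It was highest in het replicate 1 and lowest in ko replicate 3, 1.31 log2 units below the median of the others, and the library poorest in miR-99a-5p was not poor in its near-identical sister. miR-99b-5p was the steadiest member, with 1797, 1242, 781 and 1553 CPM in het and 1213, 1069, 1871 and 1319 CPM in ko, and its highest library was 2.40 times its lowest, against 8.60 times for miR-99a-5p and 21.4 times for miR-10a-5p.

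The composition of the trio followed. miR-99a-5p made up 71.8%, 72.4%, 84.6% and 77.6% of the summed trio in het and 32.8%, 75.3%, 66.8% and 77.5% in ko. In 7 libraries it was the main form, and in ko replicate 1 it gave way to miR-100-5p, which made up 41.0% of the trio there. The ratio of miR-99a-5p to miR-100-5p, from 4.23 to 8.16 in the other libraries, was 0.801 in ko replicate 1. Residual levels of the trio did not move as a block, with r of -0.11 between miR-99a-5p and miR-100-5p, -0.004 between miR-99a-5p and miR-99b-5p and -0.04 between miR-100-5p and miR-99b-5p over the 8 libraries. Without het replicate 1 and ko replicate 3, r was -0.24, -0.07 and 0.46 in the same order.

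The miR-10 pair was then set against the trio. The summed trio held 16072, 10803, 15503 and 14956 CPM in het and 4641, 9214, 7809 and 14560 CPM in ko, whereas the summed pair held from 6.86 to 104 CPM. The trio exceeded the pair 170-, 403-, 596- and 595-fold in het and 309-, 511-, 75.4- and 2123-fold in ko, that is, in every library. On the log2 scale, the ratio of pair to trio averaged -8.62 ± 0.85 over the 4 het and -8.64 ± 1.99 over the 4 ko libraries (± SD), so that the genotypes differed by -0.015 with an SD of 1.53 within genotypes. Leaving out 1 library at a time moved this difference from -0.82 (without ko replicate 3) to 0.79 (without ko replicate 4), and without het replicate 1 and ko replicate 3 it was -0.41. The ratio was highest in these 2 libraries and lowest in ko replicate 4, where the pair rested on 7 reads. No test was run on this sum over members.

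**Figure D3:**
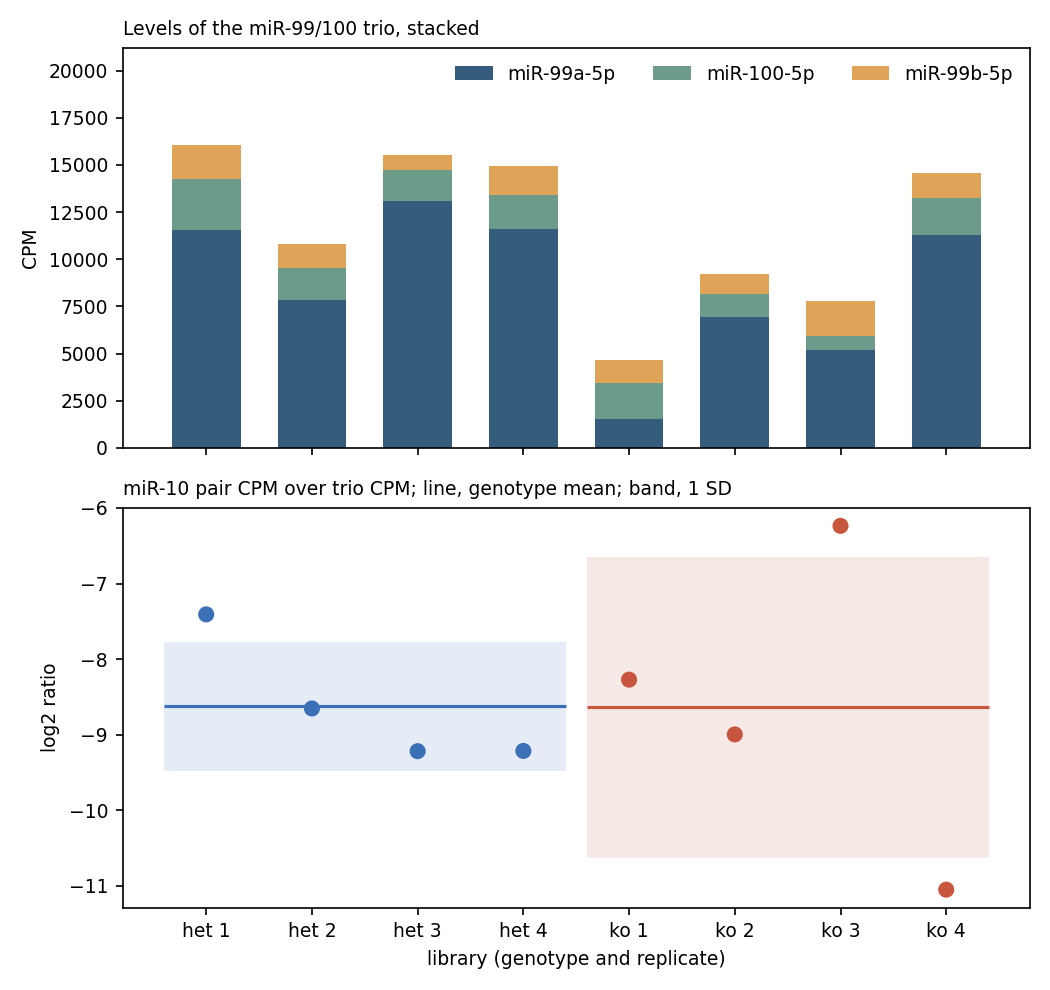
Upper panel, CPM of miR-99a-5p, miR-100-5p and miR-99b-5p stacked for each library, from 4641 CPM in ko replicate 1 to 16072 CPM in het replicate 1. Lower panel, log2 ratio of the miR-10 pair to the trio, with the mean (line) and 1 SD (band) of each genotype, which nearly coincide at -8.62 in het and -8.64 in ko.

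The study asked how the RISC content of ko brains differs from that of het brains. None of the 6 members passed the test between genotypes (limma on log2(CPM + 1), adjusted p under 0.05), where 1.3% of the 463 miRNAs tested were called, all of them lower in ko. Before adjustment, p was under 0.05 for 1 of 6 members, which was lower in ko, beside 7.34% of all miRNAs, or 6.91% counting those lower in ko. Fold changes on this scale understate those of scarce miRNAs. No member had genotypes without overlap, which 3.46% of all miRNAs had. The 6 miRNAs called were 3 of 5 epithelial and 3 of 3 sensory and pineal markers, whose sums were 2177 to 8424 CPM and 390 to 1338 CPM in het and 163 to 1718 CPM and 26.5 to 129 CPM in ko, and in the 9 other marker lists 0 were called. Of these 9, the mesenchymal and meningeal list also had sums without overlap, from 45.04 to 407 CPM in het and from 21.1 to 42.1 CPM in ko, with 1 of its 2 tested miRNAs at an unadjusted p under 0.05. Their part in the values of the members was not tested. Over all 8 libraries, miR-99a-5p had the most negative log2 fold change of the members, with 11022 ± 2253 CPM (SD, n = 4) in het against 6239 ± 4050 CPM (SD, n = 4) in ko. Its log2 fold change was -1.12 with an SE of 0.48 (limma adjusted p = 0.593), and edgeR and DESeq2 on reads gave -0.69 and -0.67 with no member under an unadjusted p of 0.05. Without ko replicate 1 the change was -0.55, and without both deepest libraries -0.50, so that part of the size rested on ko replicate 1. In these settings miR-10b-5p was lower, at -0.76 and -0.75, and without ko replicate 3 miR-10a-5p was, at -1.36 against -1.14 for miR-99a-5p. miR-100-5p had a log2 fold change of -0.52 (95% interval -1.25 to 0.22), which was -0.22 without ko replicate 3 and -0.05 without het replicate 1 and ko replicate 3. miR-99b-5p had 0.06 (-0.61 to 0.73) and miR-99b-3p 0.25 (-0.58 to 1.08), the latter from 0.02 without het replicate 2 to 0.53 without het replicate 4.

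The miR-10 pair had wide intervals. miR-10a-5p had a log2 fold change of -0.52 with an interval from -2.30 to 1.26 (limma adjusted p = 0.975), and its sign turned in edgeR, where it was 0.08. Without het replicate 1 it was likewise 0.08, and without both het replicate 1 and ko replicate 3 it was -0.76 (limma adjusted p = 0.880). miR-10b-5p had -0.88 with an interval from -2.15 to 0.40 (limma adjusted p = 0.796), and -1.13 without these libraries, and it ran from -1.32 without ko replicate 3 to -0.52 without ko replicate 4. Log2 changes of 1 in either direction thus lay within the interval of miR-10a-5p. Over all 463 miRNAs the median log2 fold change was -0.09, and centring each library on its median moved every value up by 0.22, which left miR-99a-5p at -0.89 and miR-10a-5p at -0.30. The median log2 fold change was 0.055 in edgeR and 0.068 in DESeq2.

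**Figure D4:**
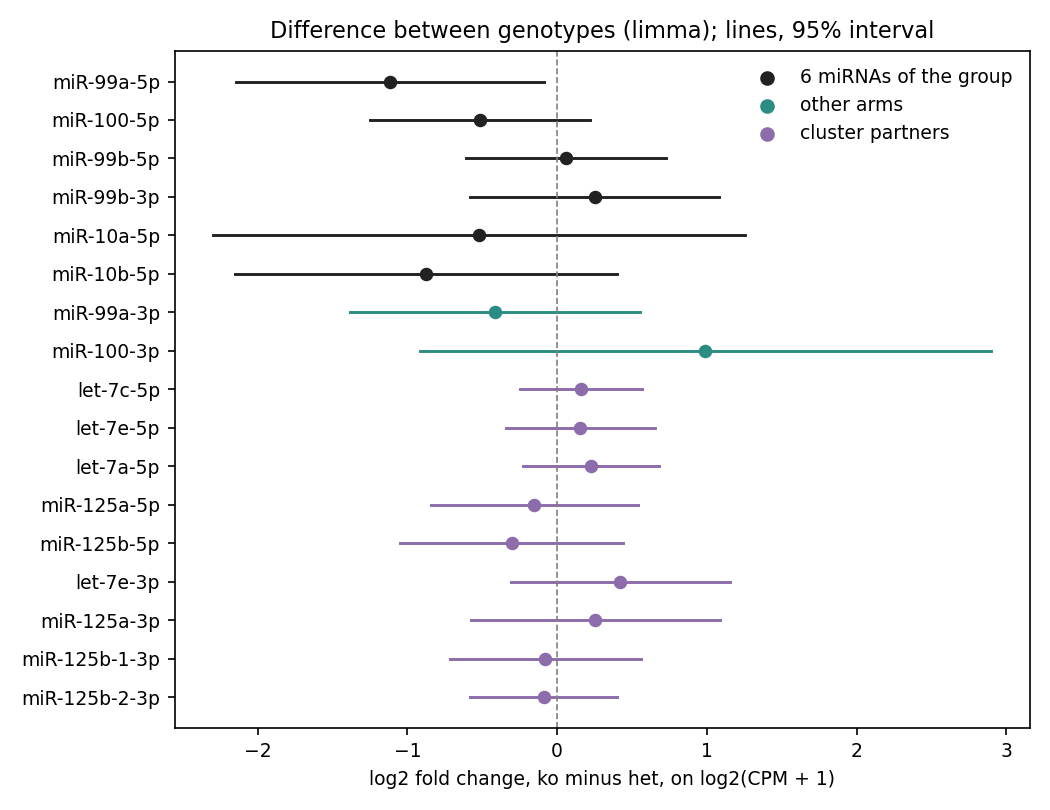
Log2 fold change (ko minus het, limma on log2(CPM + 1)) with its 95% interval for the 6 members, 2 other arms and 9 cluster partners that were tested. The interval of miR-99a-5p, from -2.15 to -0.09, is the only one of the 17 that leaves out 0, and its adjusted p of 0.593 did not pass.

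The hairpins of the family also yield other arms, which are usually degraded after the guide is loaded. miR-99a-3p was the most abundant, with 112, 47.5, 49.3 and 90.9 CPM in het and 37.7, 46.4, 34.8 and 121 CPM in ko. It was lowest in ko replicates 3 and 1 and high in het replicate 1 and ko replicate 4. The 5p arm of miR-99a exceeded its 3p arm 103-, 165-, 266- and 128-fold in het and 40.5-, 149-, 150- and 92.9-fold in ko, so that ko replicate 1 was poor in both arms but more so in the 5p arm. miR-100-3p was scarce at 11.0 ± 11.0 CPM, miR-10a-3p was seen with 10 reads in all, and miR-10b-3p was not among the names. For miR-99b the 3p arm was closer in level to the 5p arm, with 48.3, 31.6, 50.5 and 93.5 CPM in het and 73.4, 40.0, 64.0 and 78.4 CPM in ko, and the 5p arm exceeded it only 15.5- to 39.3-fold. Of 138 hairpins tested with limma for the ratio of arms, 0 passed and 5.8% had an unadjusted p under 0.05. The log2 ratio, with 1 CPM added to each arm, changed by -0.70 for miR-99a (limma adjusted p = 0.769), which was -0.29 without ko replicate 1, and by -0.19 for miR-99b (limma adjusted p = 0.900), which was 0.004 without het replicate 1 and -0.42 without het replicate 3. For miR-100, whose 3p arm had 0 reads in het replicate 1, where 3 reads were worth 5.79 CPM, no fold is given for that library, and without it the change was -0.48 (limma adjusted p = 0.925).

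Genes that neighbour the trio on the chromosome did not share its pattern throughout. The list of cluster partners held 11 names of let-7 and miR-125, of which 9 were tested and 0 passed in limma, with 0 at an unadjusted p under 0.05 and a median log2 fold change of 0.15 beside -0.09 for all miRNAs. let-7c-5p, a guide of the let-7 family that is also made from a gene elsewhere, held 45878, 52646, 41445 and 46220 CPM in het and 57452, 49799, 58217 and 43528 CPM in ko. It was thus among its highest in ko replicate 1, where its neighbour miR-99a-5p was lowest, and the ratio of let-7c-5p to miR-99a-5p was 37.7 in that library against 3.16 to 11.2 in the others. Residual r between them was -0.76 over 8 libraries. miR-125b-5p, which is made from genes beside both miR-99a and miR-100, held 28868, 20200, 25350 and 19342 CPM in het and 25469, 14245, 9886 and 34448 CPM in ko. It followed miR-100-5p, with r of 0.91 and 10.6 to 17.6 times its level, and not miR-99a-5p, with r of 0.05. Both of its genes give the same 5p arm, and the 3p arms, which differ between them, had r with miR-100-5p of -0.66 for miR-125b-1-3p and -0.55 for miR-125b-2-3p. let-7e-5p exceeded miR-99b-5p 4.78- to 11.6-fold.

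The miRNAs whose residual levels were most like each of the 5 members from 5p arms, among 275 that averaged 100 CPM or more, were named by r over the 8 libraries. They are the 3 highest of 275 values over 8 points. Such a choice by itself favours a high r, so they are a description only. For miR-100-5p they were miR-181d-5p (0.93), miR-125b-5p (0.91) and miR-592-5p (0.88). For miR-99a-5p they were miR-551b-3p (0.85), miR-142a-5p (0.81) and miR-137-3p (0.81), and for miR-99b-5p miR-17-5p (0.92), miR-361-3p (0.90) and miR-1981-5p (0.90). For miR-10a-5p they were miR-138-2-3p (0.92), miR-219a-2-3p (0.83) and miR-185-5p (0.81), and for miR-10b-5p miR-425-5p (0.92), miR-138-2-3p (0.92) and miR-193b-3p (0.86). Only miR-125b-5p in these lists is a chromosomal neighbour of the member it was like. miR-219a-2-3p, an oligodendrocyte miRNA, had its highest het value in replicate 1, with 1446 CPM, and its highest ko value in replicate 3, with 1787 CPM, but the other listed oligodendrocyte miRNA, miR-338-3p, was highest of all in het replicate 1, with 8128 CPM, and near its lowest in ko replicate 3, with 3296 CPM.

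The ends of the reads were examined because a start moved by 1 base replaces the seed, while the 3′ end leaves it as it is. The reads that carry this are shown as the table gives them, with T for U. For miR-10a-5p the main read and the most abundant read with a moved start follow, with the 6mer seed (positions 2 to 7) in capitals.
miR-10a-5p, main read: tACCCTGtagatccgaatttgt
miR-10a-5p, start moved by 1: aCCCTGTagatccgaatttgtg
Reads off the main seed made up 24.2% ± 9.40 of miR-10a-5p and 12.9% ± 11.9 of miR-10b-5p (SD, n = 8). In the trio they made up 1.76% ± 0.261 of miR-99a-5p, 2.03% ± 0.452 of miR-100-5p and 2.31% ± 0.514 of miR-99b-5p, and over 463 miRNAs the median was 3.32% and the quartiles were 1.67% and 12.6%. The trio thus lay in the middle range of all miRNAs and miR-10a-5p above it, and in miR-10b-5p the share ran from 0% to 33.3% over the libraries. For miR-10a-5p the share was 15.8%, 33.3%, 5.89% and 25.6% in het and 26.7%, 35.0%, 26.2% and 25.01% in ko, the last from 4 reads, and the genotypes overlapped. Of 278 miRNAs of at least 100 CPM tested with limma, 0 passed and 6.12% had an unadjusted p under 0.05, with no member of the trio among them.

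The 3′ ends differed between members as well. The most abundant reads of miR-99a-5p are shown with the last base in capitals.
miR-99a-5p, shorter by 1: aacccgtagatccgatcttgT
miR-99a-5p, full length: aacccgtagatccgatcttgtG
miR-99a-5p, with A: aacccgtagatccgatcttgtgA
miR-99a-5p, with T: aacccgtagatccgatcttgtgT
The form shorter by 1 base made up 39.1% ± 9.48 of miR-99a-5p and the full-length form 37.4% ± 8.07 (SD, n = 8). In miR-100-5p and miR-99b-5p the full-length form led with 49.4% ± 8.69 and 58.6% ± 5.36, and in miR-10a-5p and miR-10b-5p the form shorter by 1 led with 56.6% ± 13.4 and 71.2% ± 12.8. An added A made up 7.998% ± 2.37 of miR-99a-5p, 8.43% ± 2.70 of miR-100-5p and 4.41% ± 1.33 of miR-99b-5p. In the hairpins the next base is G for miR-99a and C for miR-100, so neither an added A nor an added T is encoded there. miR-99b-3p was the most extended member, with an added A in 23.1% ± 11.9, an added T in 17.7% ± 6.52 and the full-length form in 13.3% ± 7.89. The bases that follow the miR-99b arms in the hairpin were not read here, so whether its added A or T is encoded was not tested.

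**Figure D5:**
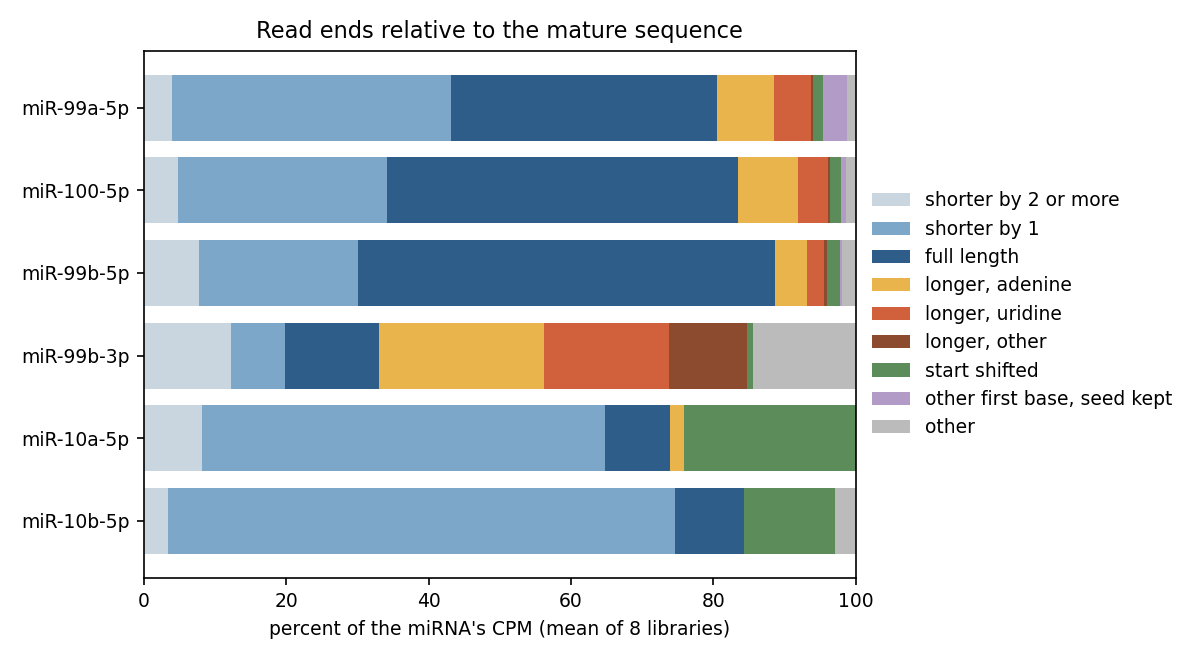
Share of each member's CPM (mean of 8 libraries, in percent) by the form of the read relative to the RefSeq mature sequence. Reads with a moved start (green) take 24.2% of miR-10a-5p and 1.43% of miR-99a-5p, and reads extended by an adenine or a uridine are the largest classes of miR-99b-3p, with 23.1% and 17.7%.

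The genotypes did not differ in read length beyond the threshold. Reads of miR-99a-5p averaged 21.6 ± 0.0699 nt over the het and 21.7 ± 0.0884 nt over the ko libraries (SD, 4 each), a difference of 0.109 nt (limma adjusted p = 0.905), and that of miR-100-5p differed by 0.024 nt. Of 278 miRNAs 0 passed in limma, and 5.4% had an unadjusted p under 0.05, none of them in the trio. A further form kept the seed and had another first base.
miR-99a-5p, other first base: Gacccgtagatccgatcttgt
This change, A1G relative to the mature sequence, was seen in 3.34% ± 0.167 of the seed-carrying reads of miR-99a-5p and ranged only from 3.06% to 3.59% over the 8 libraries. In miR-100-5p, which shares its first bases with miR-99a-5p, A1G was seen in 0.676% ± 0.240, and in miR-99b-5p the corresponding C1T in 0.255% ± 0.255. Single reads were also tested. Of 3299 reads, 0.485% passed in limma. Among 29 reads of the members 0 passed and 5 had an unadjusted p under 0.05, all of them miR-99a-5p and lower in ko, beside 5.3% of all reads, or 4.18% counting those lower in ko. All 13 miR-99a-5p reads, which come from the same libraries, had a negative log2 fold change, from -1.50 to -0.37. Without ko replicate 1, 12 of 13 were negative, from -1.11 to 0.21, and 2 had an unadjusted p under 0.05, so that part of these sizes rested on that library as well.

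Each 6mer seed carries a viability score, averaged over 3 mouse cell lines that were transfected with an siRNA holding it, where low scores mark seeds that kill cells through DISE (Death Induced by Survival gene Elimination). The seed of the miR-10 pair, ACCCUG, had a score of 74.7, and that of the trio, ACCCGU, a score of 57.2. A start moved by 1 base gave CCCUGU with 52.1 in the pair and CCCGUA with 79.7 in the trio, so that the moved start lowered the score in the former and raised it in the latter. Weighted by reads, the mean score was 69.2 ± 2.12 for miR-10a-5p, 71.8 ± 2.68 for miR-10b-5p, 57.5 ± 0.0491 for miR-99a-5p and 50.9 ± 1.97 for miR-99b-3p (SD, n = 8). In miR-99b-3p, the main seed AAGCUC, with a score of 54.6, held 89.9% ± 4.44 of the reads, and most of the others carried not a moved start but a changed base within the seed, AGGCUC, with a score of 13.2 and 8.65% ± 4.55 of the reads (SD, n = 8).

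Summed over all reads, the seed ACCCGU held 14193 ± 2368 CPM in het and 8960 ± 4122 CPM in ko (SD, n = 4 each), of which the members supplied 99.1%. Its log2 fold change was -0.76 with an SE of 0.31 (limma adjusted p = 0.843). CCCGUA held 172 ± 41.0 CPM in het and 101 ± 36.1 CPM in ko, with a log2 fold change of -0.81 (limma adjusted p = 0.843), and members supplied 93.3%. Without ko replicate 1 the changes were -0.48 for ACCCGU and -0.53 for CCCGUA, so that part of both sizes rested on that library. Without ko replicate 4 they were -1.03 and -0.98. Neither seed passed, and 0.303% of 990 seeds passed. Before adjustment p was under 0.05 for both, each lower in ko, beside 5.76% of all seeds, or 4.85% counting those lower in ko. ACCCUG held 53.4 ± 33.2 CPM in het, 43.1 ± 42.7 CPM in ko and had a log2 fold change of -0.62 (limma adjusted p = 0.982), which ran from -1.20 without ko replicate 3 to -0.10 without ko replicate 4. miR-10a-5p supplied 44.4% of it and miR-10b-5p 21.6%, and reads of miR-504-5p with a moved start supplied from 0% to 53.2% by library.
miR-504-5p, start moved by 1: gACCCTGgtctgcactctatc
CCCUGU came mainly from miR-339-5p, with 85.7%, and AAGCUC, the main seed of miR-99b-3p, came mainly from miR-127-5p, with 62.5%, and from miR-99a-3p, with 20.1%. Members supplied 1.80% of the former and 16.9% of the latter.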

How the data were processed

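RNA bound to Ago proteins was sequenced from cortex and hippocampus of 8 mice (4 het, 4 ko, grouped by sample title). The authors trimmed the reads (Trim Galore per the labels, version not given in the sources used here), removed rare reads, matched the rest to small RNAs by BLAST in their SPOROS pipeline and scaled each library to 1000000 reads, so the deposited values are CPM per distinct sequence. The deposited viability score of a seed is the authors' mean over 3 mouse cell lines from an earlier screen. Scaled levels are relative to the rest of a library. A sequence was kept from 8 reads in all 8 libraries together, so scarce forms were more easily lost from shallow libraries.

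CPM were summed by name, seed or read and tested on log2(CPM + 1) with limma 3.58.1 under R 4.3.3, using a trended and robust prior, for features with a mean of at least 10 CPM (100 CPM for read ends), both genotypes in one fit with no covariate, and p-values were adjusted over all features by Benjamini-Hochberg. All values (100%, within 0.0006 CPM) were whole multiples of 1 read, and edgeR 4.0.16 and DESeq2 1.42.0 were run on these recovered reads as alternatives, calling 4 and 9 miRNAs. Tested on simulated data for 3299 reads, 200 of which were given a log2 change of 2, limma recovered 51.0% with 2.86% false among its calls. The simulated reads were drawn independently, with the same dispersion for all. In the data the SD over the libraries ran from 27.1% of the mean for miR-99b-5p to 116% for miR-10a-5p, so these rates do not describe single members. Wilson intervals and the 3-read level cover counting error only, as reads had no molecular identifiers.

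Named are all 6 members, the other arms, cluster partners and Hox miRNAs, marker lists of 11 tissues or cell types, and the 3 miRNAs most like a member. The members and lists were chosen with earlier results of these data known. Mature sequences are from RefSeq and gene positions from GENCODE M21 (GRCm38), while the table's annotation strings name mm9, and none of its coordinates was used. The bases that follow the miR-99b arms in the hairpin were not analysed here.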

Additional observations from a re-analysis of the deposited data

Results flagged for a closer look

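In 94 groups of 4 libraries (a measure in a genotype), 16 had a highest or lowest library whose gap to the next exceeded Dixon's limit. Chance would give about 4.70 if the groups were independent and normally distributed. Many share the same reads, such as miR-10a-5p and the miR-10 pair, and some rest on a few reads. No excess over chance can therefore be read from these counts. Most of the 16 flags concern the miRNAs of the Hox clusters. miR-10a-5p was at 73.4 CPM in het replicate 1 (next 16.1) and 83.8 CPM in ko replicate 3 (next 10.04), and the summed miR-10 pair at 94.6 CPM and 104 CPM in these libraries. In the same order, miR-196a-5p was at 15.4 CPM and 6.87 CPM, and miR-196b-5p at 15.4 CPM and 14.6 CPM. miR-615-3p was at 14.6 CPM in ko replicate 3 (next 0.602), and miR-10a-5p per miR-10b-5p was 4.24 there (next 1.74). The cause was not tested.

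In the other arms and the trio, miR-100-5p was at 2732 CPM in het replicate 1 (next 1794), miR-99a-3p at 121 CPM in ko replicate 4 (next 46.4), and miR-99a-5p per miR-99b-5p at 16.8 in het replicate 3 (next 7.47). For read ends, ko replicate 2 had 35.0% of miR-10a-5p reads off the main seed (next 26.7%) and with it a mean viability score of 66.8 (next 68.7). In het replicate 2, 0% of the 46 miR-99b-3p reads were off the main seed (next 11.5%).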

How the results depend on the processing

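None of 108 member values under other settings passed the test. Log2 fold changes turned sign for miR-10a-5p in edgeR (0.077) and DESeq2 (0.027). With het replicate 1 and ko replicate 3 left out, chosen after seeing the data, miR-99a-3p (0.0017), let-7e-5p (-0.043), miR-125b-5p (0.11) and miR-125a-3p (-0.22) turned, as did miR-125a-5p (0.34) and miR-125b-1-3p (0.14) without both deepest libraries. The rest turned under centring, edgeR and DESeq2: miR-125a-5p (0.070, 0.096, 0.11), miR-125b-1-3p (0.14, 0.071, 0.087) and miR-125b-2-3p (0.13, 0.047, 0.059), and in edgeR and DESeq2 miR-125b-5p (0.0067, 0.016). Leaving out 1 library gave -1.36 to 0.082 for miR-10a-5p, -0.18 to 0.22 for miR-99b-5p, -1.51 to -0.55 for miR-99a-5p, -1.32 to -0.52 for miR-10b-5p, -0.70 to -0.22 for miR-100-5p, 0.021 to 0.53 for miR-99b-3p, -0.38 to 0.17 for miR-125a-5p, -0.60 to 0.0052 for miR-125b-5p, -0.060 to 0.50 for miR-125a-3p and -0.24 to 0.083 for miR-125b-1-3p.

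Called miRNAs (6) ranged from 4 to 9 when 1 library was left out, seeds (3) from 0 to 6, reads (16) from 9 to 21, shares off the main seed (0) from 0 to 2 and arm ratios (0) from 0 to 1. Seeds fell to 1 with a pseudocount of 0.1, and reads were 9 without both deepest libraries and 35 with a mean of at least 1 CPM. With the replicate number as a block, 10 miRNAs, 26 reads and 2 arm ratios were called, none of the members. Same-numbered libraries are different mice, with r of their deviations of 0.04, 0.29, -0.18 and 0.25, and only replicate 2 correlated best with its own number. Depth limits miR-10a-5p and miR-10b-5p, with 4 and 3 reads in ko replicate 4.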

Other observations

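Some reads that lie on the hairpins of the family carry no member's name. There were 164 such sequences with 4061 reads, and they summed to between 51.5 and 188 CPM per library. The hairpin of miR-99a held 104 of them, with 126 ± 26.7 CPM in het and 78.8 ± 52.6 CPM in ko (SD, n = 4 each), and the hairpins of miR-10a and miR-10b held 0. No level of a member includes these reads. Of the seeds summed in the report, 117 of the sequences carry ACCCGU, with 119 ± 19.0 CPM in het and 78.6 ± 45.1 CPM in ko (SD, n = 4 each), and are part of its sum.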
